A study of Homo sapiens with 4 samples.

Results

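The genes described here encode the enzymes of cholesterol and fatty acid synthesis, with the proteins that sense sterols and move them in and out of the cell. Their expression was compared in the established human cell line UM-UC-3, derived from a bladder cancer, between cells carrying GFP alone and cells carrying GFP fused to RhoGDI2, the product of ARHGDIB, which the study treats as a suppressor of metastasis. Of 37 genes in the list, 34 were represented on the array by probe sets (groups of short probes read out as a single value) that the platform annotation assigns to a single gene. These 34 genes had 78 such probe sets, among 19775 genes and 54613 probe sets in all. Each gene was read from the probe set with the highest mean over the 4 arrays. CYP51A1 and FADS1 were named only by probe sets shared with other genes, and FDFT1 had no listed probe set; these 3 genes were not analysed here.

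Cholesterol is built from acetyl-CoA by way of mevalonate, isopentenyl and farnesyl diphosphate, squalene and lanosterol, and the last stretch of the route trims lanosterol to cholesterol. When sterols in the endoplasmic reticulum fall, the escort protein SCAP carries the transcription factor precursors SREBP-1 and SREBP-2 (genes SREBF1 and SREBF2) to the Golgi apparatus, where proteases release the active factor; INSIG proteins hold SCAP back when sterols are plentiful. SREBP-2 is best known for driving cholesterol synthesis and uptake genes and SREBP-1c for fatty acid synthesis genes, with overlap between them.

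Each group had 2 arrays, preparations A and B, which the labels describe as biological replicates made at different times and matched across the groups. Control cells were co-transfected with a GFP vector and the puromycin resistance plasmid pBABE PURO, and both lines were sorted by fluorescence and grown to log phase. The sources used here do not say whether each line is a pool or a clone, nor which promoter drives the transgene. The p-values rest on how far the difference between these lines varied from A to B, moderated across probe sets. They do not measure the spread between independent transfections. For the GFP-RhoGDI2 samples, the free-text description speaks of the control transfection, whereas title, source and characteristics name GFP-RhoGDI2, and the groups follow the titles. ARHGDIB itself read 6.51 and 6.27 in GFP cells and 11.94 and 11.58 in GFP-RhoGDI2 cells on its brightest probe set. Its other probe sets differed far less, by 0.94 and -0.02 (GFP-RhoGDI2 minus GFP, adjusted p = 0.00794 and 0.953 by limma). Of 12 measured urothelial and epithelial markers, the keratin genes KRT8 and KRT18 were high (log2 levels of 9.69 and 13.60 in GFP cells) and lower in GFP-RhoGDI2 cells by limma (differences of -1.23 and -0.59; adjusted p = 0.00278 and 0.0222), GATA3 was at 5.38, and the uroplakins, KRT5, KRT14, KRT20, EPCAM and CDH1 had means over the 4 arrays under 4.637, the median over probe sets that served as the filter level. Of these, UPK1A read 4.18 and 4.03 in GFP and 4.95 and 4.55 in GFP-RhoGDI2 cells, and KRT5 had a GFP mean of 4.64. Of 7 fibroblast and mesenchymal markers, 4 lay under the filter level, and limma called 0 of the other 3. Those 3, VIM, COL1A1 and THY1, had GFP means of 13.78, 7.41 and 7.15. Of 6 macrophage and blood cell markers, 5 lay under the filter level, as did 6 of 7 adipocyte and hepatocyte markers. Among the latter, FABP4, a fatty acid carrier of adipocytes, read 3.63 and 3.33 in GFP and 4.45 and 5.28 in GFP-RhoGDI2 cells, an untested difference of 1.39, while ADIPOQ, LEP and PLIN1 differed by 0.03, 0.04 and 0.00. The part of these marker differences in the results below was not tested.

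Values are log2 expression made by the authors with RMA, so a difference of 1 is a 2-fold change, and levels of different probe sets cannot be ranked against each other. All differences below are GFP-RhoGDI2 minus GFP. Since these are bulk RNA samples, more cells expressing a gene and more of its RNA per cell cannot be told apart.

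In the cells with GFP-RhoGDI2, 7 of 16 tested enzymes of cholesterol synthesis, 3 of 5 sterol-sensing genes and 2 of 5 genes of sterol uptake and transport rose, while of 7 fatty acid genes SCD alone did. Of 33 members that passed the filter on low values, 13 rose, which is 39.4% of them, against 4.83% of all 12123 tested genes. By limma 0 members fell; over all tested genes 3.35% were called lower and 8.17% either way. At an unadjusted p under 0.05, 19 of the 33 members were higher (57.6%) and 0 lower, against 13.1% and 14.0% of all tested genes. The median difference of the tested members was 0.33, against -0.01 over all tested genes. It was 0.25 in preparation A and 0.43 in preparation B. The called differences ran from 0.47 for FDPS to 1.04 for VLDLR, or 1.38-fold to 2.05-fold, and the other tested members lay between -0.18 and 0.42. In 24 of the 34 measured genes both GFP-RhoGDI2 arrays lay above both GFP arrays, and in 4 both lay below; over all measured genes these shares were 21.6% and 25.7%, and over the tested genes 25.6% and 29.0%.

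**Figure D1:**
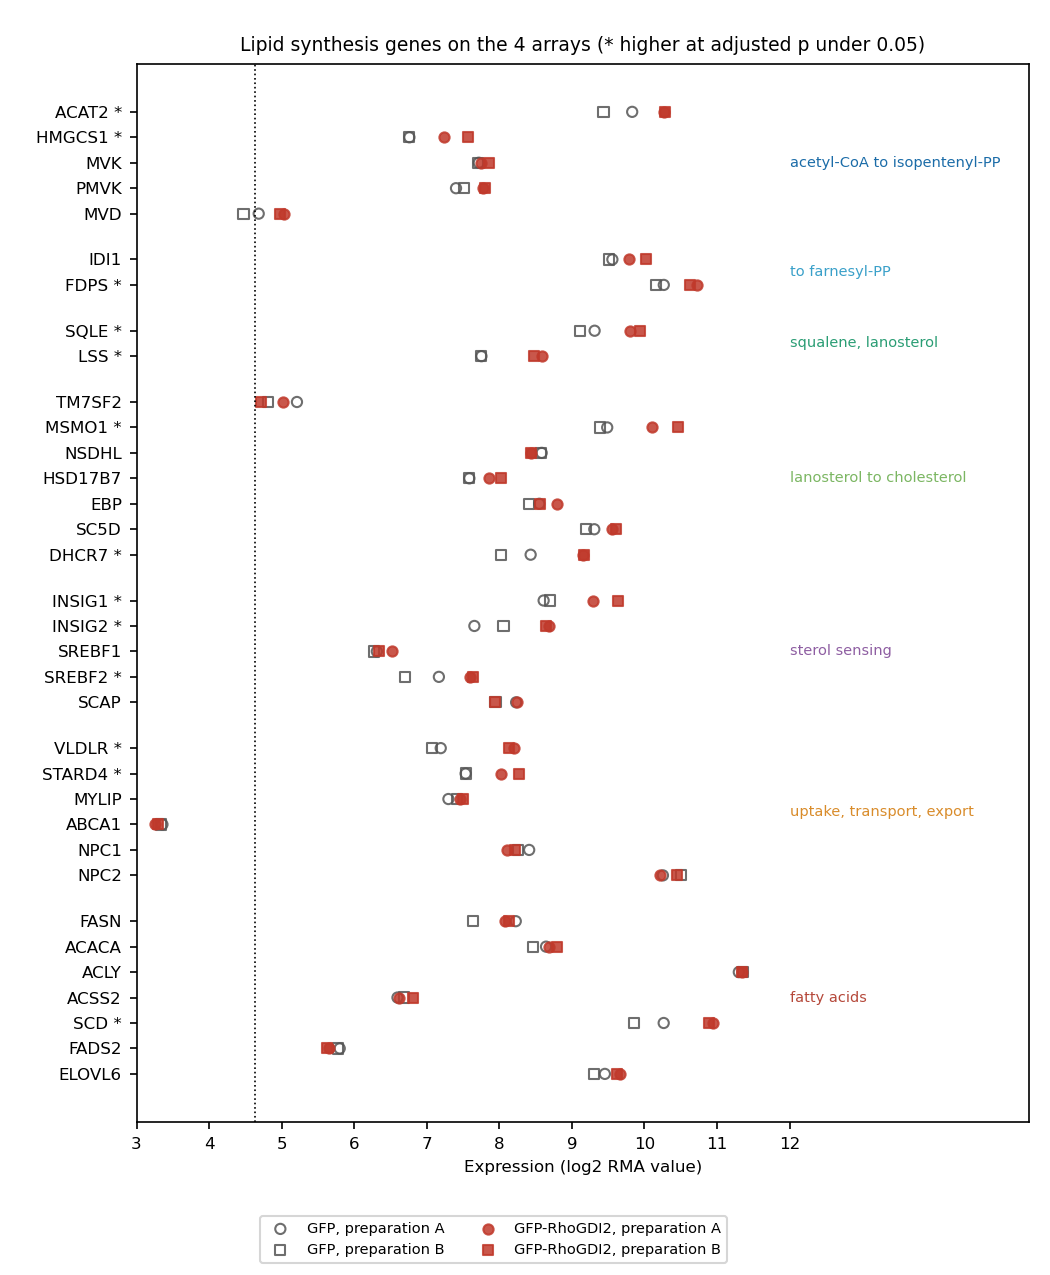
Log2 expression of each measured gene (rows, grouped by pathway step) on the 4 arrays; open grey symbols are GFP, filled red symbols GFP-RhoGDI2, circles preparation A and squares preparation B, and the dotted line is the filter level of 4.637. Red symbols lie to the right of both grey symbols in 24 of 34 rows, among them all 13 starred genes.

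The calls rested on few arrays. With an array left out and no pairing, limma called 8 members without GFP A (where HMGCS1, FDPS, INSIG1, INSIG2 and STARD4 were lost), 5 without GFP B (DHCR7, LSS, INSIG1, INSIG2 and VLDLR), 4 without GFP-RhoGDI2 A (HMGCS1, MSMO1, INSIG1 and VLDLR) and 1 without GFP-RhoGDI2 B (VLDLR), while the shares called higher over all tested genes were 2.21%, 2.49%, 1.68% and 1.25%. The median difference of the members stayed between 0.30 and 0.38 in these fits.

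At the start of the pathway, from acetyl-CoA to isopentenyl diphosphate, 2 of 5 tested genes rose, and the step's median difference was 0.42, which is the value of the uncalled MVD. ACAT2 (Entrez gene 39), a thiolase that joins acetyl-CoA units, read 9.83 and 9.43 in GFP cells (A and B) and 10.28 and 10.29 in GFP-RhoGDI2 cells. The groups did not overlap, and the lowest value was that of GFP B. The rise was 0.65 (SE 0.125, adjusted p = 0.0394), a call that was lost without the pairing (adjusted p = 0.0576), without GFP B, without either GFP-RhoGDI2 array, and with no filter on low values. HMGCS1 (Entrez gene 3157), the cytosolic HMG-CoA synthase that feeds the mevalonate pathway, read 6.76 and 6.75 in GFP and 7.23 and 7.57 in GFP-RhoGDI2 cells. Both GFP arrays were nearly equal here, and the GFP-RhoGDI2 arrays stood above them, B more than A. The rise was 0.64 (SE 0.117, adjusted p = 0.0341), and a further HMGCS1 probe set rose by 0.71 (adjusted p = 0.0222); the main call was lost without either GFP array, without GFP-RhoGDI2 B, and with no filter. MVK, the mevalonate kinase, read 7.72 and 7.71 in GFP and 7.75 and 7.86 in GFP-RhoGDI2 cells, close together in both preparations. It differed by 0.09 (adjusted p = 0.587), with other probe sets from -0.10 to 0.10, and PMVK, the next kinase, by 0.33 (adjusted p = 0.0914); neither was called. MVD, the decarboxylase that yields isopentenyl diphosphate, differed by 0.42 (adjusted p = 0.0595); its GFP mean of 4.58 is under the filter level, which it passed through its GFP-RhoGDI2 arrays.

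In the next step, IDI1 isomerizes isopentenyl diphosphate and FDPS joins the units into farnesyl diphosphate, the last intermediate shared by sterols and prenylated proteins. FDPS (Entrez gene 2224), the farnesyl diphosphate synthase, read 10.27 and 10.15 in GFP cells and 10.72 and 10.63 in GFP-RhoGDI2 cells. Its differences in A and B were close, 0.45 and 0.48, and the groups were separate. It rose by 0.47 (SE 0.0919, adjusted p = 0.0416), the smallest called rise among the members. That call was lost without the pairing (adjusted p = 0.0623), with any array left out, with no filter on low values and after quantile normalization. IDI1, the isopentenyl diphosphate isomerase, read 9.56 and 9.51 in GFP cells and 9.79 and 10.02 in GFP-RhoGDI2 cells, without overlap. It differed by 0.37 in its brightest probe set (adjusted p = 0.0977) and by 0.40 in the next (adjusted p = 0.0805), while its other probe sets differed by -0.11 and 0.00. For IDI1 the probe sets therefore disagreed in size and direction.

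Squalene and lanosterol formation was measured through SQLE and LSS, and both rose. SQLE (Entrez gene 6713), the squalene epoxidase, a rate-controlling enzyme of the pathway, read 9.31 and 9.11 in GFP and 9.81 and 9.95 in GFP-RhoGDI2 cells. The arrays of the lines were separate, with the wider gap in preparation B. The rise was 0.66 (SE 0.116, adjusted p = 0.0314). Of its other probe sets, the middle pair differed by 0.28 (adjusted p = 0.1302) and 0.78 (adjusted p = 0.0123), and the dimmest, under the filter level, by 0.68. LSS (Entrez gene 4047), the cyclase that makes lanosterol, read 7.75 on both GFP arrays and 8.59 and 8.48 on the GFP-RhoGDI2 arrays. The spread within each line was small beside the gap between lines. LSS rose by 0.78 (SE 0.0942, adjusted p = 0.0117), and its other probe sets were higher by 0.74 (adjusted p = 0.0131) and, untested, by 0.58. The probe set at 0.74 had a GFP mean of 4.42, under the filter level, which it passed through its GFP-RhoGDI2 arrays. SQLE lost its call without GFP B, and both lost theirs without either GFP-RhoGDI2 array.

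Between lanosterol and cholesterol, 2 of 7 tested genes rose, with a median difference of 0.33. MSMO1 (Entrez gene 6307), which removes the methyl groups at carbon 4 of the sterol, read 9.49 and 9.38 in GFP cells and 10.10 and 10.46 in GFP-RhoGDI2 cells. The groups were separate, and GFP-RhoGDI2 B was the highest. The rise was 0.84 (SE 0.133, adjusted p = 0.0237). DHCR7 (Entrez gene 1717), the reductase that yields cholesterol itself, read 8.43 and 8.02 in GFP cells and 9.15 and 9.16 in GFP-RhoGDI2 cells. The GFP-RhoGDI2 arrays were nearly equal and the GFP arrays were not. DHCR7 rose by 0.93 (SE 0.127, adjusted p = 0.0166), and a further probe set rose by 0.91 (adjusted p = 0.0471). MSMO1 was not called without GFP B or without GFP-RhoGDI2 B, and DHCR7 was not called without either GFP-RhoGDI2 array. The enzymes between them were not called: HSD17B7 differed by 0.35 (adjusted p = 0.0917) and SC5D by 0.33 (adjusted p = 0.103). EBP, a sterol isomerase, read 8.55 and 8.41 in GFP and 8.79 and 8.57 in GFP-RhoGDI2 cells, which hardly separated. It differed by 0.20 (adjusted p = 0.248), and its other probe sets ran from -0.10 to 0.31. NSDHL, which acts on the same methyl groups as MSMO1, read 8.58 and 8.57 in GFP and 8.43 and 8.44 in GFP-RhoGDI2 cells, with both arrays of the latter below the former. Its difference was -0.14 (95% interval -0.37 to 0.09, adjusted p = 0.385), and a further probe set gave -0.14 too. TM7SF2, a sterol reductase, differed by -0.15 with overlapping groups (adjusted p = 0.375).

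**Figure D2:**
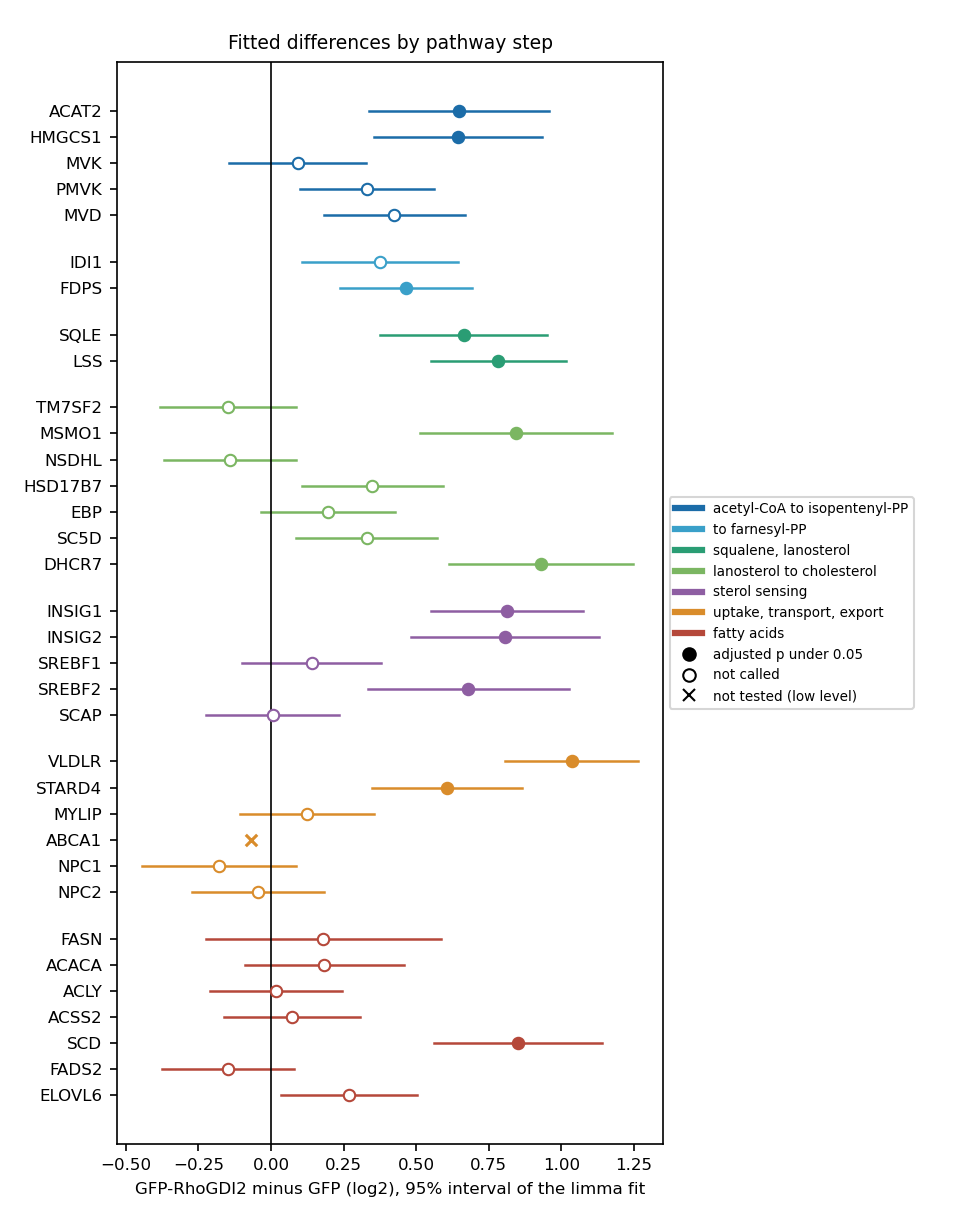
Fitted difference of each gene (GFP-RhoGDI2 minus GFP, log2; points) with the 95% interval of the limma fit (lines), coloured by pathway step; filled points passed adjusted p under 0.05, and the cross is ABCA1, which was not tested. All 13 filled points lie to the right of 0, from 0.47 for FDPS to 1.04 for VLDLR, and SCD is the only filled point among the fatty acid genes.

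Of the sterol-sensing genes, 3 of 5 rose, with a median difference of 0.68. SREBF2 (Entrez gene 6721), which encodes SREBP-2, read 7.17 and 6.70 in GFP cells and 7.60 and 7.63 in GFP-RhoGDI2 cells. The GFP arrays lay further apart from each other than the GFP-RhoGDI2 arrays did, and all of the GFP values were below the others. SREBF2 rose by 0.68 (SE 0.139, adjusted p = 0.0455), or 1.60-fold, with the largest adjusted p of the calls; it was lost without the pairing (adjusted p = 0.0649), without GFP B, without either GFP-RhoGDI2 array, with no filter and after quantile normalization. A further probe set rose by 0.58 (adjusted p = 0.0351), whereas the dimmest differed by -0.20 (adjusted p = 0.246). The mean of its probe sets differed by 0.35. SREBF1, which encodes both forms of SREBP-1, read 6.31 and 6.27 in GFP and 6.52 and 6.34 in GFP-RhoGDI2 cells. The gap was narrow, with GFP-RhoGDI2 B close to the GFP arrays; the difference was 0.14 (95% interval -0.10 to 0.38, adjusted p = 0.413), and with the mean of its probe sets it was -0.01. A difference between SREBF1 and SREBF2 was not tested.

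INSIG1 and INSIG2, which retain SCAP in the endoplasmic reticulum, both rose. INSIG1 (Entrez gene 3638), itself a classical target of SREBP, read 8.61 and 8.70 in GFP and 9.30 and 9.64 in GFP-RhoGDI2 cells. Its arrays were separate by line in both preparations. The rise was 0.81 (SE 0.106, adjusted p = 0.0147), and its other probe sets rose by 0.81 (adjusted p = 0.0376) and 1.02 (adjusted p = 0.00927). INSIG2 (Entrez gene 51141) read 7.66 and 8.06 in GFP and 8.69 and 8.64 in GFP-RhoGDI2 cells. Here GFP A was the lowest array, and the difference was larger in A (1.03) than in B (0.58). INSIG2 rose by 0.81 (SE 0.131, adjusted p = 0.0253). INSIG1 was not called without GFP A or without GFP-RhoGDI2 B, and INSIG2 not without GFP A or either GFP-RhoGDI2 array. SCAP differed by 0.01 (95% interval -0.22 to 0.23, adjusted p = 0.979): both lines were higher in A (8.23 and 8.25) than in B (7.95 and 7.94).

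Of the uptake, transport and export genes, VLDLR and STARD4 rose among 5 tested, with a step median of 0.12. VLDLR (Entrez gene 7436), a lipoprotein receptor, read 7.19 and 7.07 in GFP cells and 8.205 and 8.135 in GFP-RhoGDI2 cells. It had the largest rise of the members, 1.04 (SE 0.0923, adjusted p = 0.00456), or 2.05-fold, and was called in each of the 12 alternative fits that measured it. Its 50 nearest tested genes along the chromosome were higher too, with a median difference of 0.20. Of these neighbours 14 were called higher and 2 lower, against 4.83% and 3.35% of all tested genes. The part of this region in the VLDLR result was not tested. STARD4 (Entrez gene 134429), a soluble carrier of cholesterol between membranes, read 7.54 on both GFP arrays and 8.02 and 8.27 on the GFP-RhoGDI2 arrays. The groups were separate, with B the higher of the GFP-RhoGDI2 arrays. STARD4 rose by 0.60 (SE 0.104, adjusted p = 0.0299), a call lost with any of the 4 arrays left out. MYLIP, the ubiquitin ligase that marks lipoprotein receptors for degradation, read 7.30 and 7.41 in GFP and 7.46 and 7.501 in GFP-RhoGDI2 cells. The difference was 0.12 (adjusted p = 0.452), and its other probe sets ran from -0.16 to 0.12. NPC1 and NPC2, which release cholesterol from lysosomes, were not called either. NPC1 read 8.41 and 8.26 in GFP and 8.10 and 8.21 in GFP-RhoGDI2 cells, both of the latter below the former. It differed by -0.18 (adjusted p = 0.343), and its other probe sets, all under the filter level, by 0.00 to 0.12; NPC2 differed by -0.04 (adjusted p = 0.802). All 4 probe sets of ABCA1, a cholesterol exporter, lay under the filter level on every array, at 2.90 to 3.57, and it was not tested. The brightest read 3.36 and 3.34 in GFP and 3.26 and 3.30 in GFP-RhoGDI2 cells, and the differences of the others ran from -0.03 to 0.39.

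Around the other members, the median difference of the 50 nearest tested genes ran from -0.15 to 0.13. The highest of these medians was that of SREBF2, with 10 neighbours called higher and 1 lower. LSS had the next largest count called higher, 7. The lowest medians were those of ABCA1 and NSDHL, both -0.15, followed by MVK at -0.14 and NPC2 at -0.13. Around ABCA1 5 neighbours were called lower and 3 higher, and around NSDHL 3 lower and 0 higher. The median around NSDHL was close to its own difference of -0.14. The part of these regions in the results of their members was not tested.

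Among 7 tested genes of fatty acid synthesis, desaturation and elongation, SCD alone rose, and the step's median difference was 0.18. SCD (Entrez gene 6319), the desaturase that makes oleate from stearate, read 10.27 and 9.86 in GFP cells and 10.94 and 10.88 in GFP-RhoGDI2 cells. GFP B was the lowest array and the lines were separate. The rise was 0.85 (SE 0.117, adjusted p = 0.0167), and its other probe sets rose by 0.62, 1.09 and 1.04 (adjusted p = 0.0224, 0.00974 and 0.00478). The call was lost without GFP B and without either GFP-RhoGDI2 array. FASN (Entrez gene 2194), the fatty acid synthase, read 8.23 and 7.63 in GFP and 8.08 and 8.14 in GFP-RhoGDI2 cells. Its groups overlapped, because GFP A was the highest array and GFP B the lowest. The difference was -0.14 in A and 0.50 in B, 0.18 in the fit (95% interval -0.22 to 0.58, adjusted p = 0.532), and -0.12 without GFP B. A dimmer FASN probe set differed by -0.09. ACACA, the acetyl-CoA carboxylase that commits carbon to fatty acids, read 8.64 and 8.46 in GFP and 8.68 and 8.79 in GFP-RhoGDI2 cells. The lines were separate but close in A, the difference was 0.18 (95% interval -0.09 to 0.46, adjusted p = 0.351), and a further probe set gave -0.07. ACLY and ACSS2, which supply acetyl-CoA from citrate and from acetate, differed by 0.02 (95% interval -0.21 to 0.25, adjusted p = 0.93) and 0.07 (-0.16 to 0.31, adjusted p = 0.673). The elongase ELOVL6 differed by 0.27 (95% interval 0.03 to 0.50, adjusted p = 0.148) and was not called, though both GFP-RhoGDI2 arrays lay above both GFP arrays. Its other probe sets differed by 0.18 and 0.30. FADS2, a desaturase, read 5.801 and 5.77 in GFP and 5.65 and 5.62 in GFP-RhoGDI2 cells, lower in both preparations. The difference was -0.15 (adjusted p = 0.358), and that of a dimmer, untested probe set was 0.03. The intervals of FASN, ACACA, ACLY, ACSS2 and ELOVL6 end below the called rises of ACAT2 and HMGCS1 (0.65 and 0.64). Those of FASN, up to 0.58, and ELOVL6, up to 0.50, include the called rise of FDPS (0.47). The called genes have intervals too: those of ACAT2 (0.34 to 0.96) and HMGCS1 (0.35 to 0.93) overlap those of FASN, ACACA and ELOVL6, but not those of ACLY and ACSS2. Differences between these genes were not tested.

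The rises were mostly larger in preparation B. This held for 11 of the 13 called members, the exceptions being LSS and INSIG2, against 329 (56.2%) of the 585 genes called higher over the whole array. The called members had a median difference of 0.61 in A and 0.85 in B. In GFP cells the B array lay below the A array in 10 of the 13, with a median of -0.11 for B minus A, and in GFP-RhoGDI2 cells B lay above A in 8, with a median of 0.01. The medians over all tested genes were -0.02 in both lines. With 1 array per line and preparation, a difference between the preparations could not be tested.

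**Figure D3:**
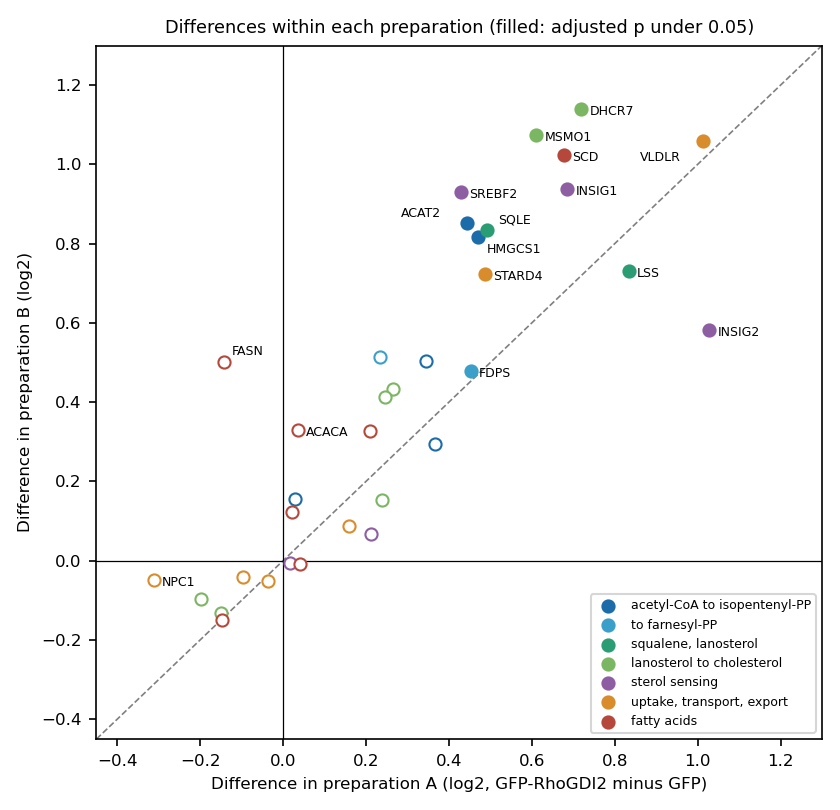
Difference between the lines in preparation A (x axis) and preparation B (y axis), both log2, for each measured gene, coloured by pathway step; filled points passed adjusted p under 0.05 and the dashed line marks equal differences. Of the 13 filled points, 11 lie above the line, and FASN sits at -0.14 in A and 0.50 in B.

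The 13 called genes included 7 with more than 1 probe set. Of their 14 further probe sets, 10 rose, 2 were not called, and 2 were under the filter level. The 10 include the LSS probe set that passed the filter only through its GFP-RhoGDI2 arrays. Of the 14, 1 was below 0, that of SREBF2 at -0.20. The other members had 30 further probe sets, of which limma called 0.

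**Figure D4:**
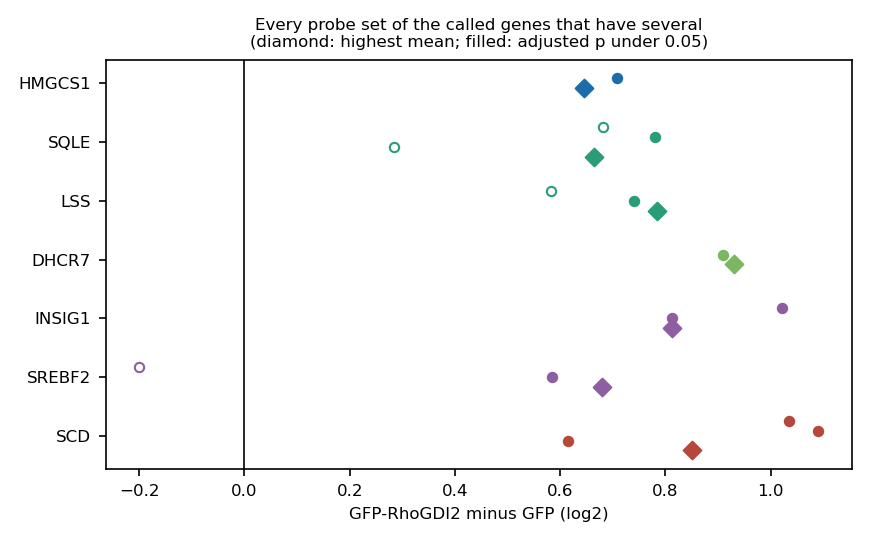
Difference (log2, x axis) of every probe set of the 7 called genes with several; diamonds are the probe sets with the highest mean, circles the others, and filled symbols passed adjusted p under 0.05. The only symbol to the left of 0 is a SREBF2 probe set at -0.20, and the SCD probe sets spread from 0.62 to 1.09.

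Upstream sequence is shown for members that moved together, with at least 1 called gene per pathway step, and for NSDHL, which did not move with them. RefSeq promoter windows (GRCh38.p14) were matched for 31 of the 34 measured genes, and ACAT2, SQLE and FASN had none. Some members had several windows, up to 3, for different start sites. Only the first listed window of each gene was counted and printed, so matches at other start sites were left out. The 250 bases before each start site were searched on both strands for CCAAT, the box bound by NF-Y, a common partner of SREBP; for TCACNCCAC, the core of the sterol regulatory element; for GGGCGG, the box bound by Sp1; and for the E-box CACGTG. Matches on opposite strands can overlap, as in NSDHL, and a match is a description of letters and not a binding site. Each stretch below reads 5′ to 3′ on the gene's own strand from 20 bases before the outermost match to 20 bases after it, with CCAAT (or its reverse complement) and TCACNCCAC matches in capitals.
HMGCS1 (chr5:43313488-43313587, minus strand): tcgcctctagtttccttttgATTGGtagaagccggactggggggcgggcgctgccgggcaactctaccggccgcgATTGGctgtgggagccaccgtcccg
FDPS (chr1:155308670-155308839, plus strand): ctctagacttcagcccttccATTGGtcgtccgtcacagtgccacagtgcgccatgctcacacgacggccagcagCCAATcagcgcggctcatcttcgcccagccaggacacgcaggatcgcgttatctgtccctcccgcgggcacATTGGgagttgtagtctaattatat
LSS (chr21:46228900-46228944, minus strand): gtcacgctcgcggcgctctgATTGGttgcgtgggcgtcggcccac
DHCR7 (chr11:71448417-71448507, minus strand): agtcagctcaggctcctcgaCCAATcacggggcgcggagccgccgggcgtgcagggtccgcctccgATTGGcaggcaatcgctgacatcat
SREBF2 (chr22:41832952-41833023, plus strand): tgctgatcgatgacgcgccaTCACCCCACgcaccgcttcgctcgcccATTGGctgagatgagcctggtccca
INSIG1 (chr7:155297688-155297732, plus strand): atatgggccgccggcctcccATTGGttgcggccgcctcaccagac
STARD4 (chr5:111512641-111512716, minus strand): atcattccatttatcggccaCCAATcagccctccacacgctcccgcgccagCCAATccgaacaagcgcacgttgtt
SCD (chr10:100346984-100347071, plus strand): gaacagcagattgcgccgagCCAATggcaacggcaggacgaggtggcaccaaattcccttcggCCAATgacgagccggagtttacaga
NSDHL (chrX:152830815-152831003, plus strand): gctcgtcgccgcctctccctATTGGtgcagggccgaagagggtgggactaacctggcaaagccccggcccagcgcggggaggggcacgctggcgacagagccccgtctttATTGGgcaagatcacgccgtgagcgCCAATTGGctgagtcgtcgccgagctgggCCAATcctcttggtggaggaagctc

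CCAAT was found in 20 of the 31 windows, and in 9 of the 11 that belong to called genes, against 35.0% of 9834 matched tested genes and 32.0% of all 35116 windows. MSMO1 held 4 CCAAT matches, FDPS 3, and HMGCS1, DHCR7, STARD4 and SCD 2 each, but the uncalled NSDHL and MVK held 5 each. The called genes without a match in the window used were INSIG2, which had 2 windows, and VLDLR. TCACNCCAC was found in 1 member, SREBF2, 133 to 125 bases before its start, and in 0.844% of tested genes. GGGCGG was in 29 of the 31 windows, against 67.0% of tested genes, and CACGTG in 4 (INSIG1, SC5D, SCAP and ABCA1), against 9.04%. Called and uncalled members thus both carried CCAAT. The share was 81.8% in the called genes and 64.5% in all matched members, the called ones included, so the share in the uncalled members was lower than that. A difference between called and uncalled members was not tested.

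In the lipid gene lists outside the members 1 gene was called, while over all tested genes limma called 4.83% higher and 3.35% lower. The counts of these lists at an unadjusted p under 0.05 stand against 13.1% higher and 14.0% lower over all tested genes. Of 10 tested genes in a further list of isoprenoid and sterol genes, limma called 0 (1 higher and 0 lower at an unadjusted p under 0.05), with a median of -0.03. Of 7 regulators linked to SREBP processing and sterols it called 0 (2 higher and 0 lower unadjusted), with a median of 0.13. Of 9 genes of sterol esterification and trafficking 1 rose: LIPA, the lysosomal lipase that frees cholesterol from its esters, which read 8.54 and 8.65 in GFP and 9.06 and 9.24 in GFP-RhoGDI2 cells, a rise of 0.55 (SE 0.0925, adjusted p = 0.0274). That list had 2 genes higher and 1 lower unadjusted (SCARB1, a lipoprotein receptor, at -0.29) and a median of 0.08. Of 13 further fatty acid and lipid synthesis genes limma called 0 (1 higher and 1 lower unadjusted, the latter ME1, the cytosolic malic enzyme, at -0.30), with a median of 0.08. Of 7 genes of fatty acid oxidation it also called 0 (2 higher and 0 lower unadjusted), with a median of 0.19. Differences between these lists and the members were not tested.

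**Figure D5:**
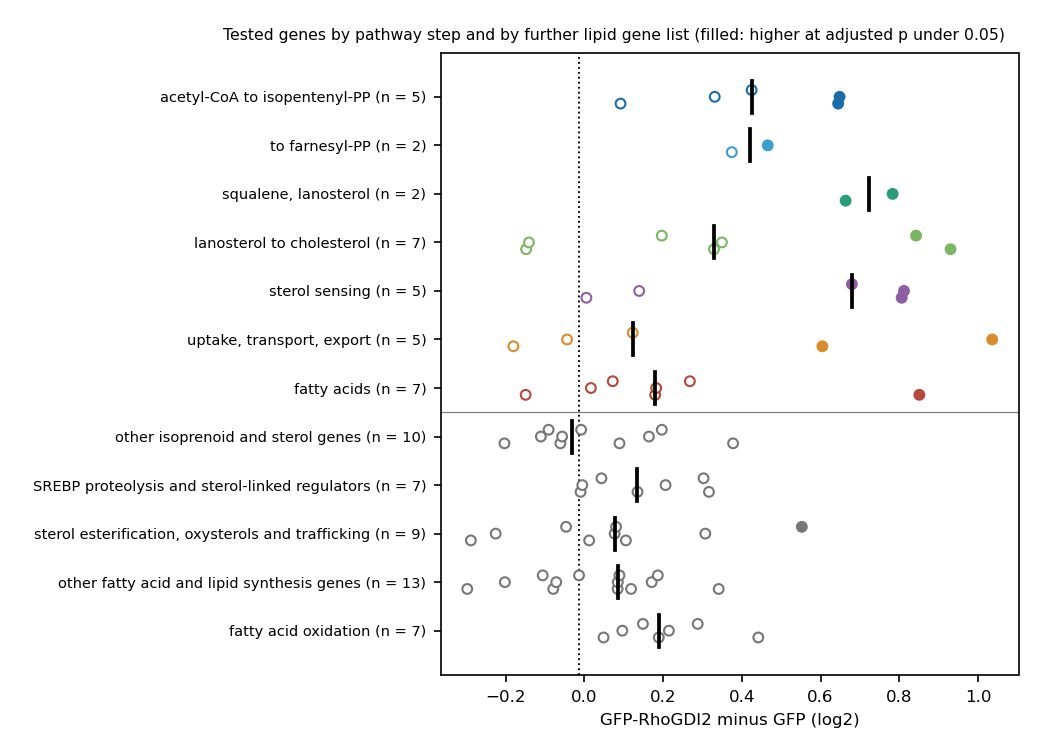
Difference (log2, x axis) of every tested gene, by pathway step of the members (coloured, above the grey line) and by further lipid gene list (grey, below it); black bars are medians, filled points rose at adjusted p under 0.05, and the dotted line is the median of all tested genes, -0.01. Medians run from 0.12 to 0.72 in the steps and from -0.03 to 0.19 in the further lists, where LIPA is the only filled point.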

How the data were processed

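Expression was measured on Affymetrix HG-U133 Plus 2.0 arrays in 2 groups of 2. The deposited log2 values come from RMA as run by the authors (submitters' processing notes); neither the software nor the set of arrays it normalized jointly is given in the sources used here. Array medians were 4.624 to 4.647, so the values were used as deposited. The number of arrays limits the precision.

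After 62 control probe sets were left out, 41091 of 54613 probe sets named 1 gene, 1801 several and 11721 were unlisted. Those with a mean at or above 4.637 (27307 probe sets, 12123 genes) were tested in R 4.3.3 with limma 3.58.1, blocking on preparation, because the labels state the pairing; deviations of same-lettered arrays correlated at r = 0.264 across probe sets. Adjusted p-values are Benjamini-Hochberg over all probe sets tested, called under 0.05, and intervals are at 95%. The fit has 1 residual degree of freedom, to which moderation adds 4.71 (prior SD 0.101), so small SEs come mainly from the prior. The code was tested on simulated data.

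The members and lists were chosen with earlier results of these data known. Values per array are given for called members, for members whose probe sets disagree in sign, and for called genes of the further lists. NSDHL, SCAP, SCARB1, ME1 and the cell type markers named fall outside this rule and were chosen after their values were seen. Alternatives were no pairing, each array left out, other filters, moderation, normalization, a floor, probe set means, no shared-transcript probe sets (identifiers ending in _s_at or _x_at), other thresholds and a fold rule.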

Additional observations from a re-analysis of the deposited data

How the results depend on the processing

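Called members kept a positive difference under each alternative that measured them, 0 members were called lower under any, and the median over the members lay between 0.25 and 0.38, so what changed was how many passed. Without the replicate block (the pairing by preparation), 10 of the members were called instead of 13 (against 3.30% of all genes), ACAT2, FDPS and SREBF2 being lost; the mevalonate step then had 1 call and the farnesyl step 0. With an array left out, calls ranged from 1 to 8 over all members, from 0 to 1 in the mevalonate step (median difference 0.385 to 0.530), 0 in the farnesyl step, 0 to 2 in squalene and lanosterol formation, 0 to 2 between lanosterol and cholesterol, 0 to 2 in sterol sensing (median 0.447 to 0.698), 1 in uptake and transport (median 0.0649 to 0.181) and 0 to 1 in the fatty acid step. With no filter on low values 9 of 34 members were called (2.33% of all genes), 0 of them in the mevalonate step and 0 in the farnesyl step, and the uptake median was 0.0395. With the upper quartile filter (18 of 28 called, against 12.1% of all genes) and with an intensity trend (18 of 33, against 11.6%), the farnesyl step had 2 calls, the step from lanosterol 4 and the fatty acid step 2. With quantile normalization 11 were called (4.24%) and the farnesyl step had 0. Robust moderation and a floor at the filter level both called 13 (4.74% and 5.19%). With probe sets averaged per gene 16 of 32 were called (10.9% of all genes), 4 of them in the mevalonate step, and the medians were 0.211 from lanosterol, 0.355 in sterol sensing and 0.323 in uptake. Without probe sets shared between transcripts 9 of the 20 members tested were called (5.02% of all genes), with 1 call each in the mevalonate, lanosterol and uptake steps and 0 in the fatty acid step, and medians of 0.233 in the farnesyl step and 0.0370 in uptake. ACAT2, DHCR7, VLDLR and SCD have only probe sets of the class left out, so they were not measured in this alternative. The 9 calls are all of the other called members, so no measured call was lost here. At an adjusted p under 0.01 only VLDLR was called, 1 member in all (1.53% of all genes) and 0 in each of the other steps; at 0.10 there were 17 calls (8.48%), 4 in the mevalonate step and 2 in the farnesyl step. A fold of at least 1.5 left 12 calls (3.46%), 0 in the farnesyl step.

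Differences that reversed sign all belonged to uncalled members. With an array left out, TM7SF2 ran from -0.349 to 0.0530 (0.0530 without GFP A and 0.00181 without GFP-RhoGDI2 B). SCAP ran from -0.149 to 0.159, below 0 without GFP-RhoGDI2 A (-0.149) or GFP B (-0.137), and NPC2 from -0.166 to 0.0782, above 0 without GFP B (0.0782) or GFP-RhoGDI2 A (0.0711). FASN ran from -0.117 (without GFP B) to 0.477, ACSS2 from -0.0224 (without GFP-RhoGDI2 B) to 0.167, and ACLY from -0.0101 (without GFP A) to 0.0434. ACLY was at -0.00823 after quantile normalization and SREBF1 at -0.00505 with averaged probe sets. The cause of these changes was not tested, beyond the fewer arrays or genes that some alternatives hold by construction. A group that loses an array has 1 left, which the fit assumes to vary like the others.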
